A study of Mus musculus with 550 samples.

Results

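The genes described are 10 named components of the NRF2 oxidative stress circuit: Nfe2l2, Nfe2l1, Keap1, Mafg, Maff, Mafk, Bach1, Sqstm1, Osgin1 and Cul3. Each gene was read from a probe set annotated to that gene alone, and where a gene had several such probe sets, the one with the highest mean in the organ was used. That rule gave values for 8 of the 10 genes, among 17097 genes tested. The probe set of Sqstm1 in the annotation used is shared with Mrnip, and Keap1 had no probe set assigned in it, so both were not analysed here. The study gave C57BL/6 mice 1 acute dose and profiled messenger RNA 6 h and 12 h later in kidney, jejunum, spleen, brain, whole blood and lymph nodes of the groin (inguinal, ILN) and gut (mesenteric, MLN). The dosed groups received dimethyl fumarate (DMF) at 100 mg/kg, DMF at 179.2 mg/kg, a mixture of calcium, magnesium and zinc salts of monoethyl fumarate (MEF) at 79.2 mg/kg, or DMF at 100 mg/kg with MEF salts at 79.2 mg/kg, here called the combination. Their controls received the vehicle, hydroxypropyl methylcellulose, and at 12 h there were also naive animals. The design gave 550 arrays in 77 groups of 3 to 8, and the labels used here give neither age nor sex.

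NRF2, the product of Nfe2l2, is a transcription factor that the adaptor KEAP1 and the ubiquitin ligase scaffold CUL3 keep low by marking it for the proteasome. Electrophiles, fumarate esters among them, modify cysteines of KEAP1, so that NRF2 protein builds up without a need for more of its messenger RNA. NRF2 then pairs with a small Maf protein (MAFG, MAFF or MAFK) on antioxidant response elements, where the heme-binding repressor BACH1 competes for the same partners and sites.

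Promoter windows of 250 bases before to 50 bases after an annotated start were taken from RefSeq (GRCm38.p6) and searched on both strands for 2 motifs, the antioxidant response element core TGACNNNGC and the Maf recognition element core GCTGANTCA. Where GC follows 3 bases after the TGAC of a Maf element, the same bases match both motifs. The letters of the Maf element core were settled with the Osgin1 match known. Among 32851 windows of the same length over all genes, 12.4% held the antioxidant response element core and 1.19% held the Maf element core. The 4 windows printed are those of Osgin1 and Mafg, the members whose levels changed most often, and of Nfe2l2 and Mafk, whose windows also hold a match. Capitals mark the match. The Osgin1 window is chr8:119436897-119437196 on the plus strand, and its Maf element begins at position -99 from the start. The Mafg window is chr11:120633498-120633797 on the minus strand, with a reverse-strand match at -222. The Nfe2l2 window is chr2:75704614-75704913 on the minus strand, with a match at -240. The Mafk window is chr5:139791286-139791585 on the plus strand, with a reverse-strand match at -13. For Osgin1 and Mafg the annotated start lies inside the span of the gene, so it is not its most upstream start.
Osgin1: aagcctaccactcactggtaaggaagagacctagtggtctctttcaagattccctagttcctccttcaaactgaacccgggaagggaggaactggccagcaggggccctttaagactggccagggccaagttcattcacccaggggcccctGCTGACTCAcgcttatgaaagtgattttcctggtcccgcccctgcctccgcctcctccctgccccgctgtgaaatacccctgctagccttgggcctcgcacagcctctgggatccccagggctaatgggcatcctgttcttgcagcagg
Mafg: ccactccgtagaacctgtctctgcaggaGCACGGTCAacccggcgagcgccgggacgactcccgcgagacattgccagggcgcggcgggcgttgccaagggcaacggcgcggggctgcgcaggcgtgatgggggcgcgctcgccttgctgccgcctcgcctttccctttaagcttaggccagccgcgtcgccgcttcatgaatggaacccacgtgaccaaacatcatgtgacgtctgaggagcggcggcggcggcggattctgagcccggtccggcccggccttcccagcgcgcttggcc
Nfe2l2: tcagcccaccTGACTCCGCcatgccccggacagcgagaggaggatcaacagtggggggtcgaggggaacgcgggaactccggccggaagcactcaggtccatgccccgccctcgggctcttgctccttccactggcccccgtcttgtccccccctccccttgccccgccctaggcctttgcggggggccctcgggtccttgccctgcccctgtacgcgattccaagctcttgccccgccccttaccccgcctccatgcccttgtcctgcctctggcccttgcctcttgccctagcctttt
Mafk: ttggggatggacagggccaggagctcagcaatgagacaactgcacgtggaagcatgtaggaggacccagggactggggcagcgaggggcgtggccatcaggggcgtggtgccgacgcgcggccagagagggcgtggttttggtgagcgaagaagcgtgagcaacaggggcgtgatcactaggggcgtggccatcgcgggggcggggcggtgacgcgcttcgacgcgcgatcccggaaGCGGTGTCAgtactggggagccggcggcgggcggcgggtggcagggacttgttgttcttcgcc
No match to either motif was present in the windows of Cul3, Bach1, Nfe2l1, Keap1 or Sqstm1, nor in that of the NRF2 target Nqo1. That says only that these letters are not in those windows. Of the 3 Maff windows, 1 held the antioxidant response element core.

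Each organ carried the genes that define it: the median level was 12.5 for Umod in kidney, 14.2 for Fabp2 in jejunum, 13.2 and 13.5 for Glycam1 in the lymph nodes, 11 for Spic in spleen, 13.1 for Snap25 in brain and 13.9 for Alas2 in whole blood, all in the deposited log2 values. Some arrays also carried genes of another tissue. In the jejunum at 12 h, 3 of 8 vehicle arrays and 1 of 8 arrays of the lower DMF dose had high Hoxb6 and Hoxb9, genes of the distal intestine. The kidney genes Umod and Kap were high on 5 jejunum arrays, all from dosed animals (1 of 4 of the lower DMF dose, 1 of 5 of MEF salts and 1 of 5 of the combination at 6 h, 1 of 8 of the higher DMF dose and 1 of 8 of the combination at 12 h). Pancreatic acinar genes were high on 17 spleen arrays, among them 4 of 8 vehicle arrays at 6 h and none of the 7 of the higher DMF dose. Acinar genes were also high on 2 MLN arrays. Fabp2 was above a level of 6 on 5 kidney arrays, all from dosed animals, on 3 spleen arrays and on 1 MLN array, and Glycam1 on 2 jejunum arrays. Results are given with and without these arrays for most of the calls that changed, not for all. In bulk tissue fewer cells of a type and less RNA per cell cannot be told apart. The arrays of each organ and time have their own lowest value, so levels are compared only between groups of the same organ and time.

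Across 7 organs, 2 times and 4 dosed groups, 53 of 448 comparisons of a member with vehicle passed a false discovery rate of 0.05 (limma, adjusted over all genes), against 3.59% of comparisons over all genes tested. Osgin1 and Mafg accounted for most of these changes and were higher in every one of them. Of the 53, 43 were higher and 10 were lower in dosed animals, against 2.11% and 1.48% over all genes. At 6 h, 39 of 224 passed (3.8% over all genes), with 36 higher and 3 lower, against 2.35% and 1.45%. At 12 h, 14 of 224 passed (3.38% over all genes), with 7 higher and 7 lower, against 1.87% and 1.5%.

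**Figure D1:**
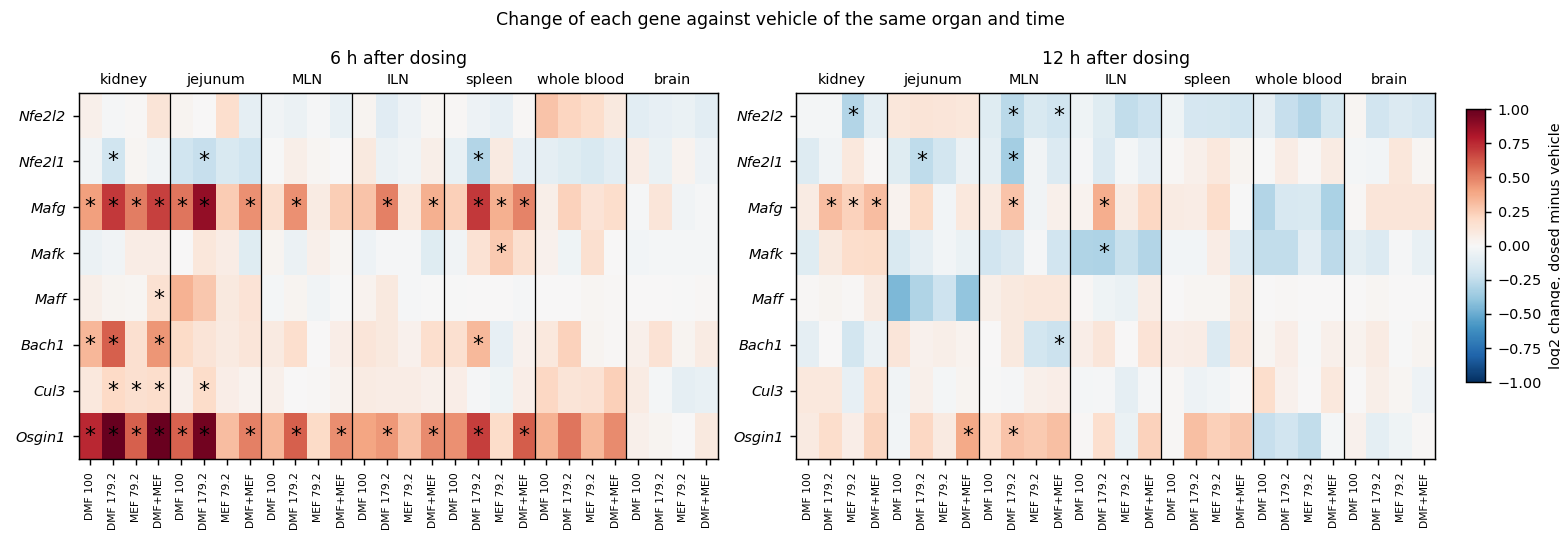
Log2 change of each of the 8 measured genes in each dosed group against vehicle of the same organ and time, at 6 h (left) and 12 h (right). Colour gives the change, red for higher in the dosed group, with the darkest shades at changes of 1 or more, and asterisks mark changes past a false discovery rate of 0.05. The rows of Osgin1 and Mafg hold most asterisks at 6 h, and whole blood and brain hold none at either time.

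The organs differed in how many changes were found. The kidney had 20 of 64 member comparisons past the threshold (10.7% over all genes), the jejunum 10 (3.91%), the MLN 9 (2.42%), the spleen 8 (4.42%) and the ILN 6 (2.36%). Brain and whole blood had none by limma, against 1.29% and 0.0819% of all genes. At an unadjusted limma p under 0.05 there were 4 and 11 of 64, and the share of all genes at that unadjusted threshold is not given. The lowest adjusted p of a member was 0.0687 in brain and 0.298 in whole blood.

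Osgin1 encodes an oxidative stress-induced growth inhibitor and is a known NRF2 target in cultured cells. It was higher in 13 of 28 comparisons at 6 h, with a median change of 0.46 log2 over all 28 (0.01 to 1.03), and in 2 of 28 at 12 h, with a median of 0.09. No comparison at either time called it lower. In the kidney at 6 h the lowest, median and highest levels were 8.57, 8.89 and 9.16 with the lower DMF dose, 8.83, 9.11 and 9.41 with the higher DMF dose, 8.41, 8.74 and 8.86 with MEF salts, and 8.86, 9.04 and 9.36 with the combination, against 7.90, 8.13 and 8.23 in vehicle animals (n = 8, 8, 8, 7 and 7). Every dosed array lay above every vehicle array. The changes were 0.76 ± 0.0913 (SE; adjusted p = 4.14e-09), 1.03 ± 0.0913 (adjusted p = 1.77e-14), 0.60 ± 0.0913 (adjusted p = 1.94e-06) and 0.99 ± 0.0943 (adjusted p = 3.38e-13) log2. The higher DMF dose thus gave 2.05 times the vehicle level.

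In the jejunum at 6 h, Osgin1 was 9.61 to 10.07 with a median of 9.85 after the higher DMF dose, against 8.54 to 9.21 with a median of 8.85 in 8 vehicle animals. The 8 dosed arrays lay above all vehicle arrays, and the change was 0.96 log2 (adjusted p = 2.25e-09). With the combination the 5 values were 9.20, 9.32, 9.40, 9.42 and 9.50, a change of 0.50 (adjusted p = 0.00943), and 4 of the 5 lay above all vehicle arrays. MEF salts gave 9.02, 9.12, 9.20, 9.21 and 9.33, a difference of 0.31 that did not pass (adjusted p = 0.247). After the lower DMF dose the values were 8.87, 9.33, 9.36 and 10.25, a change of 0.59 (adjusted p = 0.0114). That change rested on the array at 10.25: without it the difference was 0.32 (adjusted p = 0.395).

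The lymphoid organs showed Osgin1 changes with the higher DMF dose and with the combination. In the MLN at 6 h its levels ran from 5.97 to 6.46 (median 6.20) with the higher DMF dose and from 5.77 to 6.34 (median 6.06) with the combination, against 4.84 to 5.97 (median 5.70) with vehicle (n = 8 each). These were changes of 0.59 (adjusted p = 0.000124) and 0.46 (adjusted p = 0.0255), and 7 and 4 of 8 dosed arrays lay above all vehicle arrays. In the ILN at 6 h the medians were 5.50 with the higher DMF dose and 5.51 with the combination, against 5.06 with vehicle, and the ranges overlapped. The changes were 0.43 (adjusted p = 0.041) and 0.47 (adjusted p = 0.0232). In a fit of only the 2 groups compared, the ILN calls were lost (adjusted p = 0.264 and 0.0611), as were those of the MLN (adjusted p = 0.0655 and 0.345). The combination's call in the MLN was also lost without the array that carried Fabp2 (0.42, adjusted p = 0.0714).

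In the spleen at 6 h, Osgin1 was 6.50 to 7.39 (median 6.75) with the higher DMF dose and 6.54, 6.60, 6.81 and 7.03 with the combination, against 5.58 to 6.46 (median 6.18) with vehicle. Neither dosed group overlapped the vehicle group. The changes were 0.69 (adjusted p = 6.02e-05) and 0.60 (adjusted p = 0.0197). Without the arrays that carried pancreatic genes they were 0.77 (adjusted p = 0.00207) and 0.75 (adjusted p = 0.102), and without the combination array at 7.03 the second was 0.51 (adjusted p = 0.0811). A fit of only the groups compared also ended the second call (adjusted p = 0.0909), as did the place of the animal number as a covariate (0.56, adjusted p = 0.125). The lower DMF dose and MEF salts gave Osgin1 differences of 0.18 to 0.46 in these 3 organs, and none passed.

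Whole blood at 6 h gave Osgin1 differences of 0.35, 0.53, 0.33 and 0.48 log2 in the order lower DMF, higher DMF, MEF salts and combination, none of which passed. The 6 vehicle arrays were close together at 5.34 to 5.59, whereas the 7 arrays of the higher DMF dose ran from 4.98 to 6.40, and the 95% interval of that difference was 0.10 to 0.97. In brain at 6 h the differences were 0.05, 0.03, 0.01 and 0.10 in the same order. The value 3.89 recurred on 18 of the 40 brain arrays at 6 h, and arrays tied at it have no order.

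**Figure D2:**
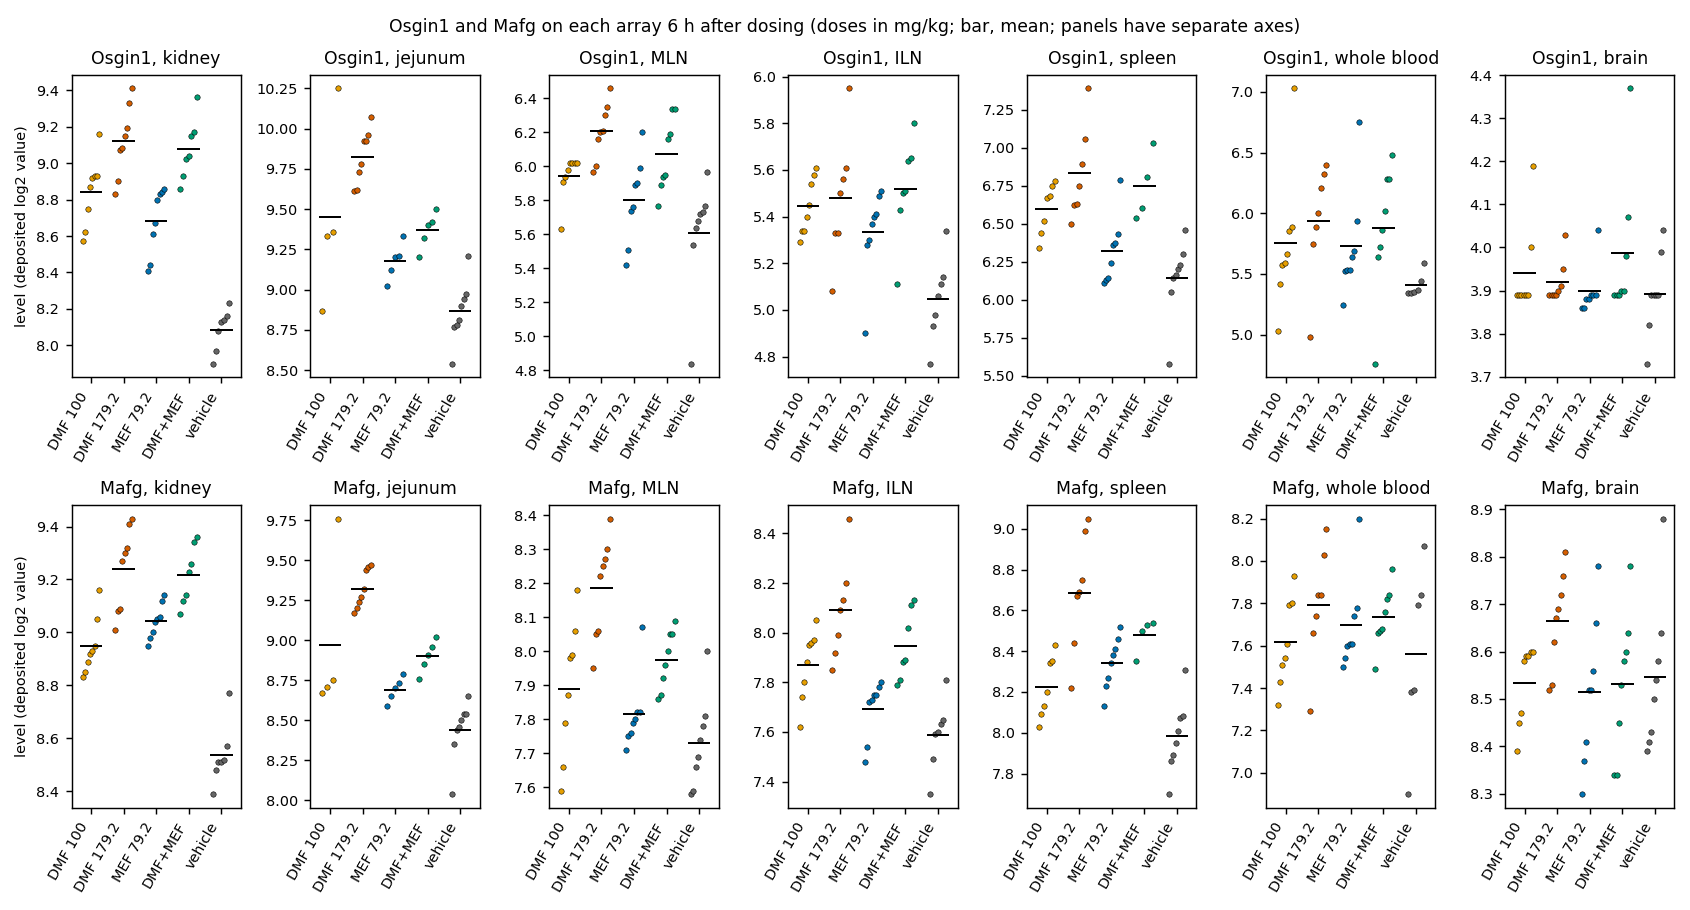
Deposited log2 level of Osgin1 (top) and Mafg (bottom) on each array 6 h after dosing, by organ, with a point per array and a bar at the group mean. Panels have separate vertical axes. All dosed kidney arrays lie above all vehicle arrays for both genes, and the highest jejunum point of the lower DMF dose, at 10.25 for Osgin1 and 9.76 for Mafg, stands away from the other 3 arrays of its group.

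Mafg encodes a small Maf protein that pairs with NRF2 or with BACH1 and cannot activate transcription alone. It was higher in 13 of 28 comparisons at 6 h and in 5 of 28 at 12 h, and lower in none. In the kidney at 6 h the lowest, median and highest levels were 8.83, 8.92 and 9.16 with the lower DMF dose, 9.01, 9.28 and 9.43 with the higher DMF dose, 8.95, 9.05 and 9.14 with MEF salts, and 9.07, 9.23 and 9.36 with the combination, against 8.39, 8.51 and 8.77 with vehicle. No dosed array overlapped the vehicle arrays. The changes were 0.41 (adjusted p = 2.59e-05), 0.70 (adjusted p = 1.18e-12), 0.51 (adjusted p = 9.56e-08) and 0.68 (adjusted p = 1.32e-11) log2.

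In the jejunum at 6 h, Mafg was 9.17 to 9.47 (median 9.30) with the higher DMF dose, against 8.04 to 8.65 (median 8.48) with vehicle, a change of 0.88 log2 or 1.84 times the vehicle level (adjusted p = 5.09e-12). With the combination the values were 8.76, 8.85, 8.91, 8.96 and 9.02, a change of 0.46 (adjusted p = 0.00215), and all 5 lay above the vehicle arrays. The lower DMF dose gave 8.67, 8.71, 8.75 and 9.76, a change of 0.53 (adjusted p = 0.00187). As for Osgin1, 1 array decided that call, and without it the difference was 0.27 (adjusted p = 0.225). MEF salts gave a difference of 0.25 that did not pass (adjusted p = 0.208).

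In the lymphoid organs at 6 h the higher DMF dose raised Mafg in all 3. In the spleen the levels were 8.22 to 9.05 (median 8.69), against 7.70 to 8.31 (median 7.98) with vehicle, a change of 0.70 (adjusted p = 9.09e-08). In the ILN they were 7.85 to 8.46 (median 8.09), against 7.35 to 7.81 (median 7.60), a change of 0.50 (adjusted p = 0.000293) with no overlap. In a fit of only the 2 groups compared its adjusted p was 0.0597. In the MLN they were 7.95 to 8.39 (median 8.23), against 7.58 to 8.0 (median 7.72), a change of 0.45 (adjusted p = 5.31e-05) with 7 of 8 dosed arrays above all vehicle arrays. The combination raised Mafg in the spleen (0.50, adjusted p = 0.00716) and the ILN (0.36, adjusted p = 0.0362), with adjusted p of 0.0531 and 0.0529 in a fit of only the groups compared. With the place of the animal number as a covariate, the spleen value was 0.51 (adjusted p = 0.0502). MEF salts raised it in the spleen (0.36, adjusted p = 0.0174). Without the spleen arrays that carried pancreatic genes, the higher DMF dose still passed (0.57, adjusted p = 0.000944), and the combination (0.35, adjusted p = 0.284) and MEF salts (0.24, adjusted p = 0.495) did not.

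The changes were also estimated among animals of neighbouring numbers, in spans of 4 places within runs of 12 numbers. Of the 26 changes of Osgin1 and Mafg called at 6 h, 20 could be estimated within spans of 4 places. All 20 were higher than vehicle there and 8 passed. In the kidney the within-span changes of Osgin1 were 0.89, 0.91, 0.58 and 1.04 log2 for the lower DMF dose, the higher DMF dose, MEF salts and the combination, and all 4 passed. Kidney Mafg passed with MEF salts (0.51) and the combination (0.83). It did not with the lower (0.51, adjusted p = 0.0694) or the higher DMF dose (0.52, adjusted p = 0.0784). Elsewhere, Mafg passed in the jejunum with the higher DMF dose and in the spleen with MEF salts. No Osgin1 change outside the kidney passed, and with the combination in the MLN it was 0.20 (adjusted p = 0.9).

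The repressor Bach1 was higher in the kidney at 6 h. Its levels were 10.45, 10.59 and 10.71 (lowest, median, highest) with the lower DMF dose, 10.66, 10.89 and 11.04 with the higher DMF dose and 10.55, 10.68 and 10.86 with the combination, against 10.03, 10.29 and 10.40 with vehicle. These 3 groups lay above all vehicle arrays, with changes of 0.33 (adjusted p = 0.00146), 0.60 (adjusted p = 4.27e-10) and 0.44 (adjusted p = 4.6e-06), and MEF salts differed by 0.16 (adjusted p = 0.209). In the spleen at 6 h the higher DMF dose gave 10.93 to 11.25, against 10.72 to 10.83 with vehicle, a change of 0.32 with no overlap (adjusted p = 0.00019). Bach1 fell by 0.21 in the MLN at 12 h with the combination (adjusted p = 0.0111, and 0.246 in a fit of only the groups compared). Vehicle minus naive there was 0.17 (adjusted p = 0.013). A second, dimmer Bach1 probe set gave differences of -0.04, -0.21, 0.35 and 0.41 in the kidney at 6 h, in the order lower DMF, higher DMF, MEF salts and combination, so the 2 probe sets disagree in sign for both doses of DMF alone. In the spleen at 6 h it gave -0.32 with the higher DMF dose, and the mean of both there gave 0.0002.

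Cul3, the scaffold of the ligase that marks NRF2, had small changes at 6 h. In the kidney it was higher by 0.20 with the higher DMF dose (adjusted p = 0.00148), 0.16 with MEF salts (adjusted p = 0.0372) and 0.18 with the combination (adjusted p = 0.013), and in the jejunum by 0.18 with the higher DMF dose (adjusted p = 0.00517). The vehicle arrays of the kidney spanned 10.42 to 10.60. The other 4 Cul3 probe sets gave 0.09, -0.00, -0.33 and -0.00 for the higher DMF dose in the kidney, and -0.07, -0.09, -0.19 and -0.00 in the jejunum. The change was seen on 1 probe set of 5 and not on the others in either organ, and the mean of all 5 gave -0.0085 in the kidney and -0.034 in the jejunum. The MEF call was also lost without the kidney arrays that carried Fabp2 (0.16, adjusted p = 0.0746).

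Nfe2l2 itself, read from the brighter of its 2 probe sets, passed in none of the 28 comparisons at 6 h. The dimmer probe set is not described at that time, so what is said of Nfe2l2 at 6 h holds for the brighter one only. At 12 h the 2 probe sets disagreed in sign for the falls called. On the brighter probe set the median change at 6 h was 0.00 log2 (-0.11 to 0.29). In the kidney at 6 h, where Osgin1 and Mafg did not overlap vehicle in any dosed group, the Nfe2l2 medians were 9.89 with the lower DMF dose, 9.88 with the higher DMF dose, 9.87 with MEF salts and 10.03 with the combination, against 9.87 with vehicle. Those groups overlapped throughout. The largest of the 4 differences, 0.13 with the combination, had an adjusted p of 0.161.

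At 12 h Nfe2l2 fell in 3 comparisons. In the kidney it was 8.56 to 8.96 (median 8.81) with MEF salts, against 8.97 to 9.21 (median 9.08) with vehicle, a change of -0.29 with no overlap (adjusted p = 0.000184). In the MLN it was 8.47 to 8.72 (median 8.61) with the higher DMF dose, against 8.69 to 9.23 (median 8.83) with vehicle, a change of -0.27 (adjusted p = 0.000773). The combination changed it by -0.20 in the MLN (adjusted p = 0.0418). Naive animals had Nfe2l2 at 8.41 to 8.72 (median 8.52) in the kidney and 8.18 to 8.72 (median 8.59) in the MLN. Vehicle minus naive was 0.56 in the kidney (adjusted p = 9.02e-12) and 0.33 in the MLN (adjusted p = 1.37e-05). The dimmer second probe set of Nfe2l2 gave 0.07, 0.67, 0.23 and 0.62 in the kidney at 12 h in the order lower DMF, higher DMF, MEF salts and combination, and 0.14, 0.26, 0.25 and 0.34 in the MLN at 12 h in the same order. The falls in both organs were thus seen on the brighter probe set alone, and the mean of the 2 gave 0.069 in the MLN with the combination.

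Nfe2l1, whose product NRF1 drives proteasome subunit genes, fell in 5 comparisons, all with the higher DMF dose. In runs of 12 animal numbers, that group stood at later places on average than vehicle, and Nfe2l1 fell with place within groups. The slope per place was -0.0126 log2 in the kidney, -0.0322 in the spleen and -0.013 in the jejunum at 6 h. At 12 h it was -0.0108 in the MLN and -0.0268 in the jejunum. In the kidney at 6 h it was 10.26 to 10.44 (median 10.35), against 10.40 to 10.66 (median 10.57) with vehicle, a change of -0.20 (adjusted p = 0.00038) with overlap at the edges. In the spleen at 6 h it was 9.17 to 9.65 (median 9.35), against 9.48 to 9.92 (median 9.70), a change of -0.29 (adjusted p = 0.00045) that was -0.29 (adjusted p = 0.0148) without the arrays with pancreatic genes. In the MLN at 12 h it was 9.24 to 9.43 (median 9.35), against 9.54 to 9.79 (median 9.69), a change of -0.34 (adjusted p = 3.84e-06), and all 8 dosed arrays lay below all vehicle arrays. The naive median there was 9.28, and vehicle minus naive was 0.43 (adjusted p = 3.62e-09). In the jejunum the changes were -0.23 at 6 h (adjusted p = 0.047) and -0.26 at 12 h (adjusted p = 0.027). The jejunum call at 12 h was lost without the arrays that carried distal intestine genes (-0.17, adjusted p = 0.365). Both were lost without those that carried Glycam1 (-0.24, adjusted p = 0.0586 at 6 h, and -0.25, adjusted p = 0.0585 at 12 h) and with the place of the animal number as a covariate (-0.18, adjusted p = 0.186, and -0.15, adjusted p = 0.226). Leaving out the arrays that carried kidney genes, none of which was in the groups compared at 6 h, kept that difference at -0.23 (adjusted p = 0.0587).

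Mafk and Maff, the other small Maf genes, changed in 3 comparisons in all. Mafk was 7.30 to 7.66 (median 7.50) in the spleen at 6 h with MEF salts, against 7.0 to 7.41 (median 7.27) with vehicle, a change of 0.27 (adjusted p = 0.0249). Without the arrays with pancreatic genes it was 0.15 (adjusted p = 0.623), and without those with Fabp2 0.25 (adjusted p = 0.061). In the ILN at 12 h Mafk fell by 0.31 with the higher DMF dose (adjusted p = 0.0242). Without vehicle replicate 1 of the 4 vehicle arrays the difference was -0.15 (adjusted p = 0.48), and the Mafg change of 0.36 in the same comparison (adjusted p = 0.0142) was 0.25 (adjusted p = 0.239). In a fit of only the groups compared the adjusted p was 0.247 for Mafk and 0.183 for Mafg.

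Maff was higher by 0.15 in the kidney at 6 h with the combination (adjusted p = 0.00134), at 4.97 to 5.39, against 4.88 to 4.97 with vehicle. The value 4.97 stood on 25 of the 38 kidney arrays at 6 h, which leaves little spread for the test, and in a fit of only the groups compared the adjusted p was 0.123. In whole blood and brain at 6 h Maff was at a single value on 34 of 37 and 38 of 40 arrays. In the jejunum at 12 h its differences were -0.45 with the lower DMF dose and -0.39 with the combination, and neither passed (adjusted p = 0.0581 and 0.0503).

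At 12 h the changes of Osgin1 and Mafg were fewer. Mafg was still higher in the kidney: its levels were 7.87 to 8.27 (median 8.07) with the higher DMF dose, 7.76 to 8.25 (median 7.96) with MEF salts and 8.02, 8.06, 8.11 and 8.15 with the combination, against 7.70 to 7.91 (median 7.77) with vehicle. The changes were 0.31 (adjusted p = 0.000968), 0.23 (adjusted p = 0.0143) and 0.31 (adjusted p = 0.00728), and all 4 combination arrays lay above all vehicle arrays. Naive kidneys had Mafg at 7.64 to 8.34 (median 7.99), and the levels of these dosed groups lay within that range. Vehicle minus naive was -0.24 (adjusted p = 0.00443), and dosed groups were not tested against naive animals. In the MLN the higher DMF dose raised Mafg by 0.29 (adjusted p = 0.00449) and Osgin1 by 0.29 (adjusted p = 0.0484), with adjusted p of 0.082 and 0.0815 in a fit of only the groups compared. Vehicle minus naive in the MLN was 0.03 for Mafg (adjusted p = 0.863) and -0.27 for Osgin1 (adjusted p = 0.0475). Osgin1 was higher by 0.38 in the jejunum with the combination (adjusted p = 0.0457). Without the arrays that carried distal intestine genes that difference was 0.22 (adjusted p = 0.627), without those that carried kidney genes 0.38 (adjusted p = 0.0703), without those that carried Glycam1 0.34 (adjusted p = 0.125), and in a fit of only the groups compared 0.38 (adjusted p = 0.21).

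**Figure D3:**
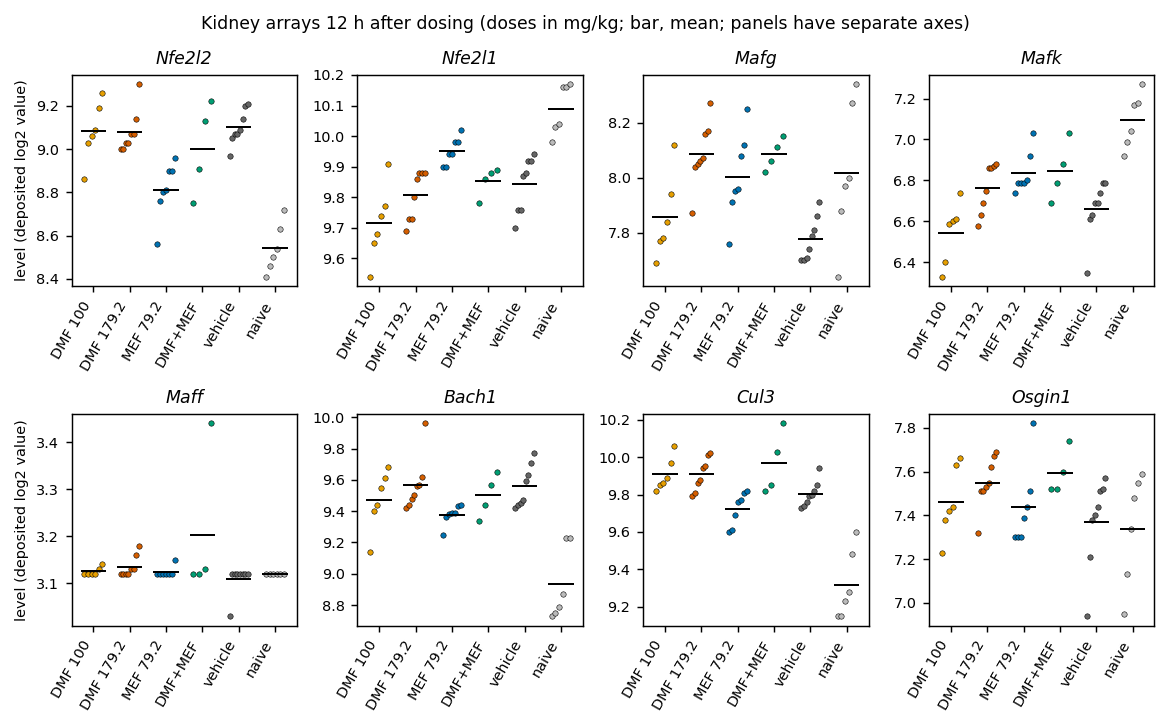
Deposited log2 level of the 8 genes on each kidney array at 12 h, with a point per array and a bar at the group mean, for the 4 dosed groups, vehicle and naive. Panels have separate vertical axes. Mafg is above vehicle with the higher DMF dose, MEF salts and the combination, and Nfe2l2, Bach1 and Cul3 are lower in naive animals than in vehicle animals. Mafg, Mafk and Nfe2l1 are higher in naive animals than in vehicle animals.

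The effect at 12 h was compared with the effect at 6 h, each against its own vehicle, and 18 of 224 differences passed, against 1.28% over all genes. Of these, 17 were lower at 12 h, against 0.712% over all genes. The kidney held 12 of the 18, and its own share over all genes in this comparison is not given. Against vehicle it was the organ with the largest share of all genes called (10.7%). There the Osgin1 effect was smaller at 12 h by -0.67 (adjusted p = 0.00492), -0.86 (adjusted p = 4.5e-06), -0.53 (adjusted p = 0.00586) and -0.77 (adjusted p = 0.0004) log2 for the lower DMF dose, the higher DMF dose, MEF salts and the combination. The Bach1 effect in the kidney was lower at 12 h with all 4, by -0.42, -0.59, -0.34 and -0.50 (adjusted p = 0.0321, 3e-05, 0.023 and 0.00327), and the MEF value was -0.32 (adjusted p = 0.0803) without the kidney arrays that carried Fabp2. Mafg differed by -0.39 with the higher DMF dose in the kidney (adjusted p = 0.00521), -0.37 with the combination there (adjusted p = 0.0401), -0.69 with the higher DMF dose in the jejunum (adjusted p = 0.000665) and -0.63 in the spleen (adjusted p = 0.00177). Nfe2l1 ran both ways with the higher DMF dose, at -0.40 in the MLN (adjusted p = 0.000954) and 0.34 in the spleen (adjusted p = 0.0155). The spleen value was 0.37 (adjusted p = 0.0531) without the arrays with pancreatic genes.

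**Figure D4:**
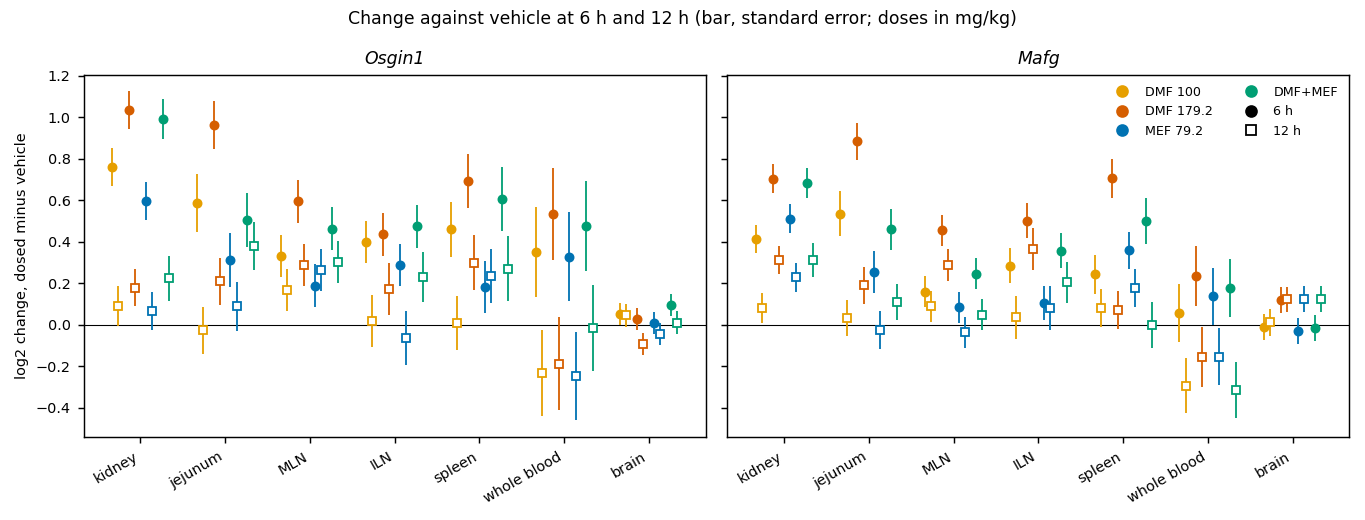
Log2 change of Osgin1 (left) and Mafg (right) against vehicle in each organ, at 6 h (filled circles) and 12 h (open squares), with standard errors. In the kidney the Osgin1 changes lie between 0.60 and 1.03 at 6 h and the 4 changes at 12 h all lie below them.

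The dosed groups were set against each other for the effect of the higher DMF dose, of adding MEF salts and of adding DMF, and 21 of 448 member differences passed, against 1.32% of all genes. In the kidney at 6 h the higher DMF dose exceeded the lower one for Osgin1 by 0.28 (adjusted p = 0.0341), Mafg by 0.29 (adjusted p = 0.00242) and Bach1 by 0.27 (adjusted p = 0.00605), and it was lower for Nfe2l1 by -0.16 (adjusted p = 0.0101). In the spleen at 6 h it exceeded the lower dose for Mafg by 0.46 (adjusted p = 0.00276) and was lower for Nfe2l1 by -0.22 (adjusted p = 0.0376). Without the arrays with pancreatic genes these were 0.43 (adjusted p = 0.0346) and -0.18 (adjusted p = 0.229). In a fit of only the groups compared, the Osgin1 difference in the kidney (adjusted p = 0.106) and the Mafg and Nfe2l1 differences in the spleen (adjusted p = 0.154 and 0.268) did not pass, and the mean of both Bach1 probe sets gave 0.05 in the kidney (adjusted p = 0.735).

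Adding MEF salts to the lower DMF dose gave a higher Mafg level in the kidney at 6 h, by 0.27 (adjusted p = 0.024), and an Osgin1 difference of 0.23 that did not pass (adjusted p = 0.226; 95% interval 0.05 to 0.41). In the jejunum at 6 h the same comparison gave -0.08 for Mafg (95% interval -0.31 to 0.16) and -0.08 for Osgin1 (95% interval -0.38 to 0.22), and neither passed. Adding DMF to MEF salts raised Osgin1 in the kidney at 6 h by 0.39 (adjusted p = 0.0198), Bach1 by 0.28 (adjusted p = 0.0263) and Maff by 0.13 (adjusted p = 0.0369), and without the kidney arrays that carried Fabp2 the last 2 had adjusted p of 0.0821 and 0.0896. In a fit of only the groups compared, the adjusted p of Mafg on adding MEF salts was 0.0646, that of Osgin1 on adding DMF 0.0616 and that of Maff 0.286. DMF at 100 mg/kg and MEF salts at 79.2 mg/kg differ in dose. Between them 7 of 112 member differences passed, against 2.27% over all genes. Among them was Nfe2l2 in the kidney at 12 h, higher in the DMF group by 0.27 on the brighter probe set. The dimmer Nfe2l2 probe set ran the other way there, with a smaller difference from vehicle for this DMF dose than for MEF salts.

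Vehicle animals were also set against naive animals at 12 h, and 16 of 56 member differences passed, against 15.9% of all genes. In the kidney, where 46% of all genes passed, 6 of 8 members did. Nfe2l2 was 8.97 to 9.21 (median 9.08) with vehicle, against 8.41 to 8.72 (median 8.52) in naive animals, a difference of 0.56 with no overlap (adjusted p = 9.02e-12). Bach1 was higher with vehicle by 0.63 (adjusted p = 7.66e-11) and Cul3 by 0.49 (adjusted p = 4.33e-12), and Mafk was lower by -0.43 (adjusted p = 2.21e-07), Nfe2l1 by -0.25 (adjusted p = 6.87e-06) and Mafg by -0.24 (adjusted p = 0.00443). Osgin1 in the kidney was not among them. The MLN also had 6 of 8 (24.4% of all genes), with Osgin1 lower by -0.27 (adjusted p = 0.0475). The spleen had 3, against 18.3%, and the ILN had 1, against 14.5%. Brain, jejunum and whole blood had 0 by limma, against 2.56%, 5.44% and 0.269% of all genes. At an unadjusted limma p under 0.05 there were 3, 2 and 1 members, and the share of all genes at that unadjusted threshold is not given.

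The genes that NRF2 drives were read from a list of 29, of which 27 were measured. Over the 56 comparisons with vehicle, 432 of 1512 were higher and 3 were lower, against 2.11% and 1.48% over all genes. The kidney had 163 of 216 called (10.7% over all genes), the jejunum 112 (3.91%), the spleen 55 (4.42%), the MLN 54 (2.42%), the ILN 31 (2.36%), brain 17 (1.29%) and whole blood 3 (0.0819%). In the jejunum and in the kidney the largest change was of Cbr3, a carbonyl reductase, at 6.25 log2 in the jejunum with the higher DMF dose and 4.68 in the kidney with the combination, both at 6 h. Akr1b8, an aldo-keto reductase, rose by 4.85 in the jejunum and Hmox1, which breaks down heme, by 4.16 in the kidney in the same comparisons. Nqo1, the quinone reductase most used as an NRF2 readout, rose by 2.60 in the MLN, 2.05 in the spleen and 1.76 in the ILN at 6 h with the higher DMF dose and by 0.77 in brain at 12 h.

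A second list held 12 other regulators, including partners, ligase parts and kinases, and 34 of 672 comparisons passed, 16 higher and 18 lower, against 3.59% over all genes (2.11% higher and 1.48% lower), so the share was near that of all genes. Bach2, a repressor related to Bach1, was lower with the higher DMF dose in the jejunum at 6 h (-0.72, adjusted p = 0.0017), the spleen at 6 h (-0.60, adjusted p = 0.000266), the MLN at 12 h (-0.38, adjusted p = 0.0236) and the kidney at 6 h (-0.28, adjusted p = 0.00939) and 12 h (-0.26, adjusted p = 0.0328). Fbxw11, an F-box protein of another NRF2 ligase, was lower in 6 comparisons, from -0.09 to -0.24. Gsk3a, a kinase upstream of that ligase, was higher in 4, from 0.22 to 0.31. Gsk3b ran both ways, at 0.19 in the jejunum at 6 h (lower DMF dose) and -0.19 in the kidney at 12 h (MEF salts). Park7 also did, at 0.22 in the spleen (combination) and -0.09 in the kidney (higher DMF dose), both at 6 h. Where called, Syvn1 and Rbx1 were lower, and Dpp3 and Palb2 were higher. The largest called change was of Nfe2, higher in the spleen at 6 h with the higher DMF dose (adjusted p = 0.0198).

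The members' changes over the 56 comparisons with vehicle were compared with those of all genes by Pearson's r, as a description, since comparisons of the same organ and time share their vehicle arrays. The genes most like Osgin1 were Mafg (r = 0.846), Lilrb4a (0.831), Atf4 (0.764), Slc48a1 (0.753) and Eif4ebp1 (0.736), while Nqo1 had 0.629. Mafg was most like Osgin1 and then Slc48a1 (0.843), and its r with Nqo1 was 0.763. For Nfe2l2 the nearest genes were Pgm2 (0.703) and Dnmt1 (0.658), and its r with Osgin1 was 0.440 and with Nqo1 0.169. Nfe2l1 was nearest to Bcl2l2 (0.761) and Ube2z (0.758), Bach1 to Rasa2 (0.860) and Pprc1 (0.789), and Cul3 to Cab39 (0.735) and Trp53inp1 (0.674). Maff was nearest to Kcnf1 (0.849) and Edn2 (0.834), and Mafk to Marchf5 (0.836) and Tdrd7 (0.770).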

How the data were processed

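Messenger RNA was measured on 550 Affymetrix mouse arrays, taken as 1 animal's organ each. The deposited values are the authors' log2 probe set summaries. The submitters' processing notes name RMA and GCRMA and the versions limma 3.4.5 and R 2.11.1, without saying which step used what. Of 45141 probe sets, 28898 had 1 gene, which gave 17097 genes, each read from its probe set of highest mean in the organ.

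In each organ, limma 3.58.1 (R 4.3.3, with data.table at version 1.17.8) fitted 1 mean per group over all genes with moderated variances. Tests were 2-sided, with the Benjamini-Hochberg adjustment over the genes of a comparison and a threshold of 0.05. P-values set a difference of group means against the spread between animals within groups, and the number of arrays limits their precision. That spread was estimated over all groups and both times of an organ. Tables were handled with pandas 2.3.3 and numpy 2.4.6 under Python 3.11.15, and plots drawn with matplotlib 3.10.9. The steps were checked on simulated data.

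The members, gene lists and motifs were chosen with earlier results of these data known. Named are all members, Nqo1, up to 3 called target genes of largest change per organ, called regulators, and the 5 genes (Osgin1) or 2 genes (other members) most like a member.

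As alternatives, the values were quantile normalized again, dim genes were dropped, trend and robust variance was used, a gene's probe sets were averaged, only the groups compared were fitted, the place of the animal number (runs of 12) entered as a covariate or in spans of 4, and each array of groups of up to 5 was left out. Chosen after seeing the data was the removal of arrays with genes of another tissue: a mean of Hoxb6 and Hoxb9 above 6, a mean of Umod and Kap above 6, Fabp2 (kidney, spleen, MLN) or Glycam1 (jejunum) above 6, or acinar markers exceeding the array lowest in them at that time by 2.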

Additional observations from a re-analysis of the deposited data

Results flagged for a closer look

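In 83 group levels of members, 4 held an array far from the rest of its group. Chance would give about 1 in 20. Mafg on jejunum array 64 at 6 h after the lower DMF dose was 9.76, with the others at 8.67 to 8.75, a gap of 0.927 of the group's range. Mafk on ILN array 24 at 12 h after the higher DMF dose was 7.20, with the others at 7.38 to 7.43 (0.783 of the range). Osgin1 was 4.84 on MLN vehicle array 58 at 6 h, with the others at 5.54 to 5.97 (0.619), and 5.58 on spleen vehicle array 51 at 6 h, with the others at 6.05 to 6.46 (0.534).

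The effect of a dose on a member differed between 12 h and 6 h in 18 comparisons by limma's contrast of the 2 effects. For Osgin1 the 12 h effect minus the 6 h effect was -0.67 (lower DMF dose), -0.86 (higher DMF dose), -0.53 (MEF salts) and -0.77 (combination) in the kidney and -0.75 with the higher DMF dose in the jejunum. For Mafg it was -0.39 (higher DMF dose) and -0.37 (combination) in the kidney, -0.69 in the jejunum and -0.63 in the spleen, both with the higher DMF dose. For Bach1 in the kidney it was -0.42, -0.59, -0.34 and -0.50 with the lower DMF dose, the higher DMF dose, MEF salts and the combination. Cul3 and Nfe2l2 in the kidney with MEF salts gave -0.24 and -0.30, which were -0.22 (adjusted p = 0.0866) and -0.25 (adjusted p = 0.0877) without the kidney arrays that carried Fabp2, and Maff in the jejunum with the higher DMF dose gave -0.57, which was -0.48 (adjusted p = 0.176) without the arrays with distal intestine genes -0.57 (adjusted p = 0.064) without those with kidney genes and -0.55 (adjusted p = 0.0966) without those with Glycam1. Nfe2l1 with the higher DMF dose gave -0.40 in the MLN and 0.34 in the spleen.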

How the results depend on the processing

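No paired analysis was possible because the groups compared share no animal numbers. Of the counts against vehicle, the kidney's 20 stayed between 13 and 26 over every alternative run, and whole blood stayed at 0 in all of them. Brain had 0, and 1 under a further quantile normalization (Mafk) and 1 in a fit of only the groups compared (Bach1). The ILN had 6, and 3 with place as a covariate, 0 with only the groups compared, 0 within spans of places (6 over the same comparisons) and 4 to 10 with 1 array left out, where vehicle replicate 1 gave 4 and vehicle replicate 6 gave 10. The jejunum had 10, and 8 without the arrays with kidney genes, 7 without those with Glycam1, 5 with only the groups compared and 1 within spans (6 over the same comparisons). The MLN had 9, and 5 with the mean of all probe sets, 3 with only the groups compared and 0 within spans. The spleen had 8, and 2 within spans (6 over the same comparisons), 4 without the arrays with pancreatic genes, and 7 to 9 with 1 array left out. NRF2 targets had 435, and 112 within spans (360). Other regulators had 34, and 14 with only the groups compared and 6 within spans (29). Between dosed groups there were 21, and 12 with only the groups compared and 3 within spans (20). Vehicle against naive gave 16, and 10 with only the groups compared and 5 within spans (16). Spans hold fewer arrays. Signs that turned did so with the mean of all probe sets: Bach1 gave -0.27 in the jejunum (higher DMF dose, 6 h) and -0.068 in the MLN (lower DMF dose minus MEF salts, 12 h), Cul3 gave -0.034 in the jejunum and -0.0085 in the kidney (higher DMF dose, 6 h), and Nfe2l2 gave 0.32 (higher DMF dose) and 0.26 (combination) in the kidney, 0.069 in the MLN (combination) at 12 h and -0.0034 for vehicle minus naive in the MLN. Averaging adds dimmer probe sets that disagree with the brighter ones, and what they measure was not tested. In the spleen, leaving out naive replicate 41 of 3 gave 0.13 for Bach1 (adjusted p = 0.533) and -0.05 for Maff (adjusted p = 0.469) for vehicle minus naive. In the kidney at 12 h, leaving out 1 of the 4 combination arrays ended the call of the Cul3 difference from MEF salts (0.18 without replicate 36), the Mafk difference from the lower DMF dose (0.24 without replicate 33) and the Mafg difference between times. Signal near the arrays' lowest value limits Maff in brain and whole blood. A value shared by many arrays limits other results. At 6 h these are Maff in kidney, spleen (25 of 34 arrays), ILN (23 of 37) and MLN (21 of 40), and Osgin1 and Mafk (15 of 40) in brain. At 12 h they are Maff in kidney (29 of 39), spleen (18 of 38) and MLN (12 of 48), and Osgin1 (14 of 46) and Mafk (12 of 46) in brain.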
